A study of Mus musculus with 2 samples.

Results

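Smooth muscle contractile genes encode the filaments that let a smooth muscle cell shorten, together with the proteins that anchor and regulate them. The 10 genes chosen here were Acta2 and Actg2 (smooth muscle actins), Tagln, Cnn1, Cnn2, Smtn, Lmod1 and Cald1 (actin-binding proteins), Myh11 (smooth muscle myosin heavy chain) and Des (the muscle intermediate filament protein desmin). A peak was counted for one of them when the deposited list gave that gene's symbol, and a gene without such a peak counted as 0. By this rule 17 of 26232 distinct ATAC-Seq peaks belonged to them, out of 15351 genes named in the list.

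ATAC-Seq finds accessible DNA by letting the Tn5 transposase cut open chromatin and insert adapters there. Here the DNA came from cardiac progenitor cells, abbreviated CPCs, taken on day 5 of a directed differentiation. The cells were E14 mouse embryonic stem cells that carry an Nkx2-5-EmGFP transgene (strain C57BL/6 per the labels), primed with LIF and BMP4, aggregated with Activin A, VEGF and BMP4, and plated with VEGF, bFGF and FGF10. The 2 samples, which the study's methods describe as independent differentiations, form a single group without knockdown, and 1 joint peak list stands for both. No sort of the cells is described for the assay. There was no second condition to compare, the depth per sample is unknown, and no value has a replicate error, so every count below is a description of the list and carries no test.

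Most of these genes are classic targets of serum response factor (SRF), which binds a short element named the CArG box and, with its cofactor myocardin, switches on the smooth muscle program. Several of them, Acta2 and Tagln among them, are also known to be active for a time in the early embryonic heart. Accessible chromatin at a start site is a usual feature of an active or poised gene, but a peak does not measure transcription. In a bulk culture, a region open in few cells and a region weakly open in many cannot be told apart.

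The list held peaks for all 5 markers of cardiac progenitors examined (Isl1, Nkx2-5, Tbx5, Gata4 and Mef2c), with 3 to 8 peaks each. Of 5 endothelial markers 3 had a peak, while Tie1 and Tek were at 0. Of 5 fibroblast markers 4 had a peak, with 2 or 3 each for Col1a1, Col1a2, Thy1 and Pdgfra, and Dcn was at 0. Over all protein coding genes the share with a peak was 62.5%. Within 500 bp of the 5′-most coding start site, 3 of 5 progenitor, 1 of 5 endothelial and 3 of 5 fibroblast markers had a peak. The share over all protein coding promoters was 53.5%. Per the study's methods, the directed differentiation usually made most, but not all, of the cells positive for the Nkx2-5 reporter. Whether other cells in the cultures contributed to the peaks described here was not tested.

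Open chromatin was assigned to 9 of the 10 smooth muscle contractile genes, and Cnn2 was the exception. Over all 21900 protein coding genes the share with at least 1 peak was 62.5%. Cald1 had 4 peaks. Acta2, Myh11, Smtn, Lmod1 and Des had 2 each, and Actg2, Tagln and Cnn1 had 1 each. Thus 6 of 10 genes had 2 or more peaks, where the share over protein coding genes was 24.4%. The median was 2 peaks per gene against 1 over protein coding genes, and the means were 1.7 and 1.07.

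**Figure D1:**
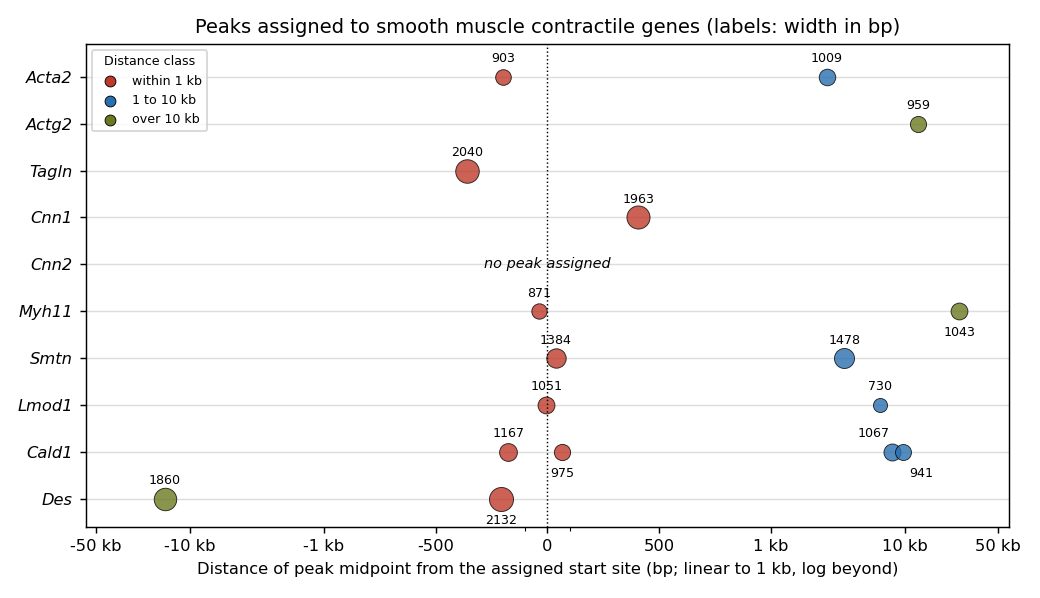
Peaks of the 10 smooth muscle contractile genes, plotted by the distance in bp of the peak midpoint from the assigned start site (linear to 1 kb, logarithmic beyond), with colours for the distance class, point area in proportion to width and the width in bp beside each point. Red points within 1 kb are seen at 8 genes, Actg2 has a single peak at 12657 bp, and Cnn2 has none.

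**Figure D2:**
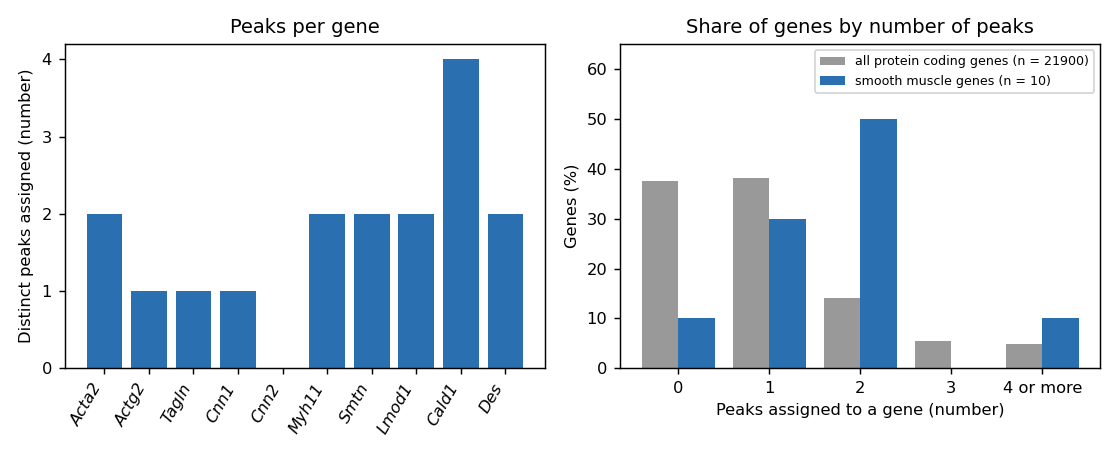
Left, number of distinct peaks assigned to each gene; right, percentage of genes with 0, 1, 2, 3 or 4 or more peaks among the 10 smooth muscle contractile genes (blue) and 21900 protein coding genes (grey). The tallest blue bar is at 2 peaks, with 5 of the 10 genes, where 14.1% of all protein coding genes lie.

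The actin genes differed in where their peaks lay. Acta2, which encodes smooth muscle α-actin, lies on the minus strand of chromosome 19 (mm9, 34315580 to 34329826). A peak of 903 bp covered its start site (chr19:34329612-34330514, distance −199 bp, accession NM_007392). The other, of 1009 bp, had its midpoint in intron 1 at a distance of 2625 bp and also covered the next exon (chr19:34326735-34327743), and 1868 bp separated them. Actg2, which encodes the γ-actin of enteric smooth muscle, had no peak at its start site on chromosome 6. Its single peak of 959 bp had its midpoint in an intron at a distance of 12657 bp and reached over a downstream exon (chr6:83473110-83474068, NM_009610), and its edge was 12191 bp from the 5′-most coding start site. The closest of the 4 annotated coding start sites of Actg2 was still 3896 bp from the midpoint. Accessible chromatin thus covered the start site of one smooth muscle actin and not of the other.

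Among genes for actin-binding proteins, Tagln and Cnn1 each had a single wide peak over the start site. Tagln encodes transgelin, also named SM22α, and lies on the minus strand of chromosome 9. Its peak was 2040 bp wide at a distance of −360 bp (chr9:45743482-45745521, NM_011526). Cnn1, on the plus strand of the same chromosome, encodes calponin 1, an inhibitor of actomyosin ATPase. Its peak was 1963 bp wide with the midpoint 407 bp downstream, so that it ran from upstream sequence into intron 1 (chr9:21903124-21905086, NM_009922). The file listed this interval on 2 lines, and it was counted once. Both peaks were wider than most peaks of their class, since 87.7% and 85.6% of all peaks within 1 kb of a start site were narrower.

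Cnn2, the calponin that is also made in cells other than smooth muscle, had no assigned peak. The gene lies on the plus strand of chromosome 10 (79451329 to 79458807). The peak closest to its start site ended 1882 bp upstream, was 3868 bp wide, and was assigned to the start site of the neighbour Tmem259 (chr10:79445580-79449447). On the other side a peak assigned to Abca7 reached the end of Cnn2 (chr10:79458791-79460620). Of 26 peaks in or within 10 kb of the 10 genes, 16 carried the symbol of the gene itself and 10 that of a neighbour. The peak of Abca7 was the one among these 10 that touched the body of a smooth muscle contractile gene. A region found in 1 replicate alone would not be in the list, so that a count of 0 is not a measurement of closed chromatin.

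Smtn encodes smoothelin, which associates with actin in contractile smooth muscle, and has 6 annotated coding start sites on the minus strand of chromosome 11. The 5′-most of these, at 3440615, lay 666 bp outside the nearest peak. That peak, of 1384 bp, covered 3 other coding start sites and had its midpoint 38 bp downstream of the one behind the deposited distance (chr11:3438566-3439949, NM_013870). The other peak of Smtn, of 1478 bp, lay in an intron 3554 bp downstream (chr11:3435003-3436480), under which a lincRNA, Gm11946, is annotated too. Here the choice of start site decides whether the gene has a promoter peak.

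Lmod1 encodes leiomodin 1, which nucleates actin filaments, and lies on the plus strand of chromosome 1. A peak of 1051 bp was centred 4 bp upstream of its start site (chr1:137220862-137221912, NM_053106). The other, in intron 1 at 6499 bp, was the narrowest of all 17 at 730 bp (chr1:137227525-137228254).

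Cald1 had the most peaks. It encodes caldesmon, an actin- and tropomyosin-binding regulator with smooth muscle and non-muscle forms, and spans 176974 bp on the plus strand of chromosome 6 with 11 annotated coding start sites. A peak of 975 bp covered 4 coding start sites at the 5′ end (chr6:34548086-34549060, distance 68 bp). Another of 1167 bp covered 2 coding start sites inside the gene (chr6:34658687-34659853, distance −175 bp), and its midpoint was 110770 bp downstream of the 5′-most. The remaining 2 peaks followed in the next intron at 8033 and 9802 bp from that internal start site (chr6:34666945-34668011 and chr6:34668777-34669717), only 765 bp apart. These peaks together covered 6 of the 11 coding start sites. The other 5, between 147452 and 147886 bp from the 5′-most, were in no peak of Cald1, the last of which ended at 121217 bp.

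Myh11 encodes the heavy chain of smooth muscle myosin, a late and specific marker of this cell type, on the minus strand of chromosome 16. Its start site was covered by a peak of 871 bp, centred 36 bp upstream (chr16:14291103-14291973, NM_013607). The other peak, of 1043 bp, lay in intron 3 at 25673 bp (chr16:14265308-14266350). Des, on the plus strand of chromosome 1, is expressed in cardiac and skeletal as well as smooth muscle. Its start site lay in a peak of 2132 bp, the widest of the 17 (chr1:75355596-75357727, distance −206 bp, NM_010043). The other peak of Des was 1860 bp wide at −15427 bp (chr1:75340511-75342370), outside any gene annotated by GENCODE. It was the only one of the 17 peaks that lay outside the body of its gene.

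**Figure D3:**
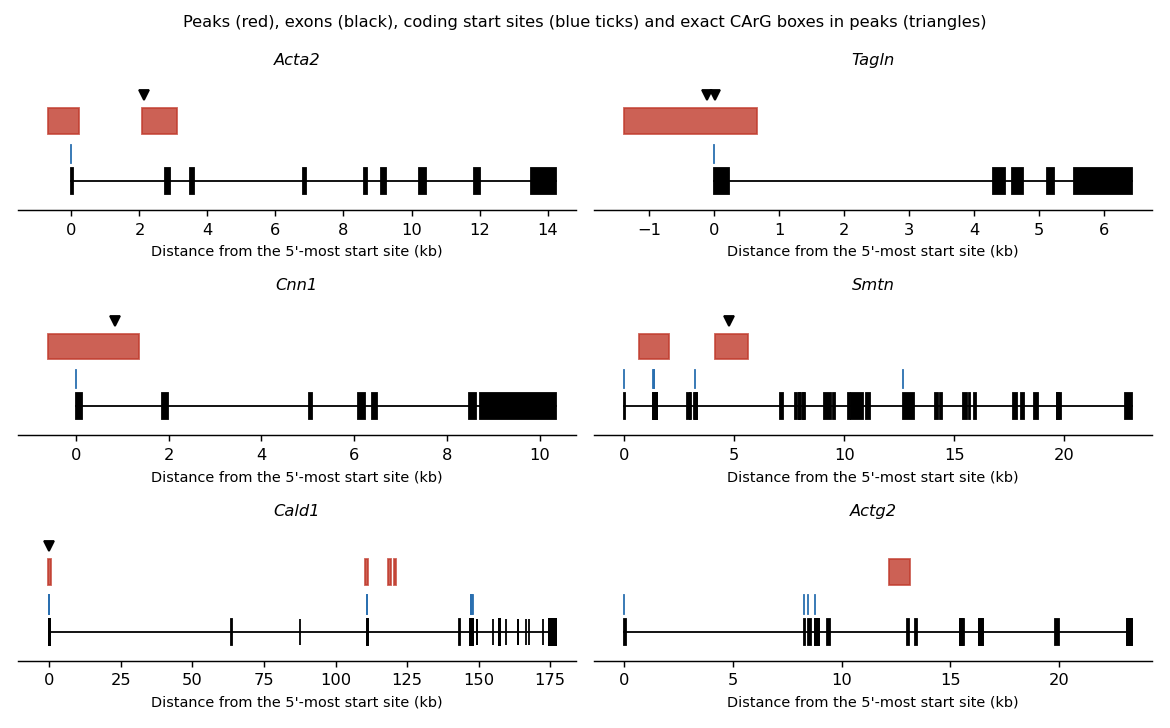
Maps of 6 genes by distance in kb from the 5′-most coding start site, with exons in black, coding start sites as blue ticks, peaks in red and exact CArG boxes inside peaks as black triangles where the text gives their position; each map has its own scale. Cald1 shows peaks at 2 regions of start sites, in Smtn the 5′-most start site is outside the peaks, and in Actg2 the peak lies far from all start sites.

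By position, 9 of the 17 peaks lay within 1 kb of the assigned start site, where 44.9% of all peaks lay. Each of these 9 covered an annotated coding start site of its gene. No share over all peaks of this class was set beside that count. Another 5 were at 1 to 10 kb. The last 3, of Actg2, Myh11 and Des, were beyond 10 kb, compared with 41.4% of all peaks. The midpoint was upstream of the start site for 7 peaks and downstream for 10, and 40.3% of all peaks were upstream.

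Promoters were also examined without the deposited symbols, as a window reaching 500 bp to each side of the coding start site farthest 5′. A peak overlapped 7 of the 10, against 53.5% of 22359 protein coding promoters. With only peaks wider than the median of the list (1081 bp), it was 3 of the 10, against 41.1%. Since promoters rich in CpG are mostly accessible in this list, with 89.4% overlapped by a peak against 24.7% of CpG-poor promoters, the CpG content of the 10 was computed. CpG-rich here means a GC content of 50% or more and a CpG ratio (CpG count over that expected from base composition) of 0.6 or more. Cnn2 (ratio 0.73) and Des (0.71) were CpG-rich and the other 8 CpG-poor, while 44.6% of all promoters were CpG-rich. Of the 8 CpG-poor promoters 6 had a peak, those of Acta2, Tagln, Cnn1, Myh11, Lmod1 and Cald1, with CpG ratios from 0.23 for Cnn1 to 0.35 for Tagln. The CpG-poor promoters of Actg2 (0.19) and Smtn (0.44) had none. Of the CpG-rich promoters, that of Des lay in a peak and that of Cnn2 did not.

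Peak widths differed widely. The 9 peaks within 1 kb of a start site ran from 871 bp (Myh11) over a median of 1167 bp to 2132 bp (Des). All 11772 peaks of this class had a median of 1326 bp and quartiles of 1072 and 1691 bp. Quartiles by definition leave as many peaks of a class outside as between them. Of the 9 smooth muscle peaks, 2 were between. Tagln, Cnn1 and Des were above the upper one, 4 peaks (Myh11, Acta2, Lmod1 and the 5′ peak of Cald1) were below the lower one, and only Smtn and the internal peak of Cald1 were between them. At 1 to 10 kb the 5 peaks ran from 730 to 1478 bp with a median of 1009 bp, against 1014 bp for the class. Beyond 10 kb the Actg2 and Myh11 peaks were within the quartiles of 717 and 1097 bp, while the Des peak of 1860 bp was wider than 96.4% of the class.

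**Figure D4:**
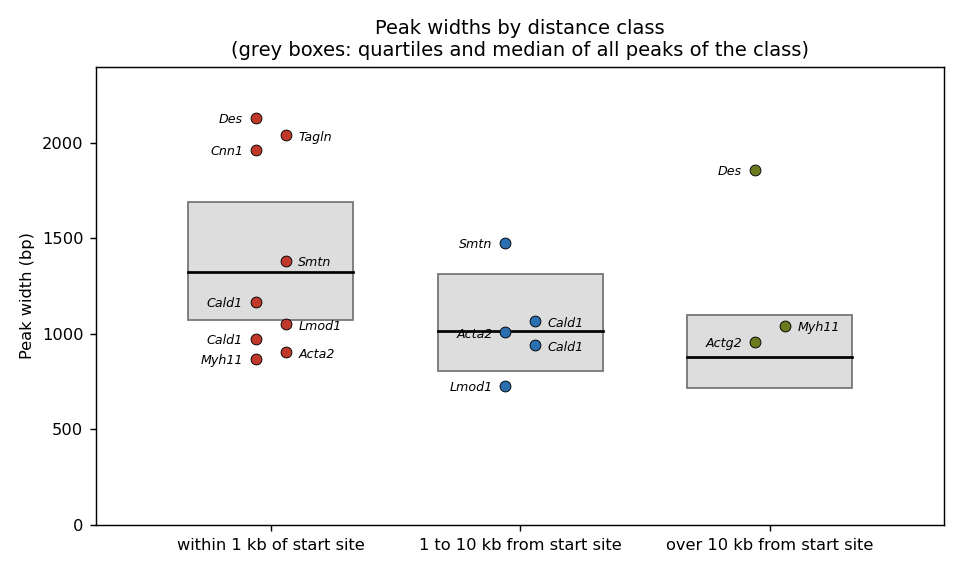
Width in bp of each of the 17 peaks, named by gene, in 3 classes of distance from the assigned start site, over grey boxes that give the quartiles and the median of all peaks of the class. Within 1 kb, Des, Tagln and Cnn1 lie above the box and 4 peaks lie below it.

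GC content ran from 45.2% (the downstream peak of Acta2) to 60.2% (the intron of Smtn) over the 17 peaks, with a median of 53% against 54.5% for all peaks. Within 1 kb the CpG ratio was between 0.26 and 0.58, in each case under the median of 0.68 for all peaks of this class.

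The CArG box, a run of A and T letters framed by a C pair and a G pair, was searched as an exact match on both strands. Between 250 bp upstream and 50 bp downstream of the 5′-most coding start site, 3 of the 10 genes held such a box, against 1.46% of all promoters. Actg2 had boxes centred at −64 and −27 bp, Cnn2 at −35 bp, and Tagln at −108 and 15 bp. Of these 3 promoters only that of Tagln lay in a peak. A box of Cald1 centred at −246 bp, inside its 5′ peak, crossed the upstream edge of the window and was not counted. With 500 bp on either side of the start site, 4 of the 10 genes held a box, against 4.32% of all promoters. The promoters of Acta2 and Lmod1 had a peak and 2 boxes each with 1 letter off the pattern. These were at −117 and −67 bp for Acta2 and at −178 and −153 bp for Lmod1. Both promoters are therefore shown with the first 3. Allowing 1 mismatch, 6 of the 10 promoters held a box, but so did 20.3% of all promoters. The 200 bp just upstream of these start sites read as follows on mm9, 5′ to 3′ along the gene, with exact boxes in capitals for the first 3 and boxes with 1 mismatch in capitals for the last 2.
Actg2 (chr6:83486260-83486459, minus strand): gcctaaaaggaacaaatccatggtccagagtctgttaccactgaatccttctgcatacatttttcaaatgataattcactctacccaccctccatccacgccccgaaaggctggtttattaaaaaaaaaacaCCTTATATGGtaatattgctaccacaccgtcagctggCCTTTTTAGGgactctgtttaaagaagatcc
Tagln (chr9:45744142-45744341, minus strand): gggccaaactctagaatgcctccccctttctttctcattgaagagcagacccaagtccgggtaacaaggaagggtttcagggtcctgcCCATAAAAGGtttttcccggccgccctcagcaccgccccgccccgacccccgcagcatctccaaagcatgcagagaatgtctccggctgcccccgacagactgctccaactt
Cnn2 (chr10:79451129-79451328, plus strand): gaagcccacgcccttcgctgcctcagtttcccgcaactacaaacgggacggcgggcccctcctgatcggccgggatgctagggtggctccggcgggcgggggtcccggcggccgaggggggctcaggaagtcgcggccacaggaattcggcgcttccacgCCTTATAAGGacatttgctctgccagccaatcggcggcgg
Acta2, 1 mismatch (chr19:34329827-34330026, minus strand): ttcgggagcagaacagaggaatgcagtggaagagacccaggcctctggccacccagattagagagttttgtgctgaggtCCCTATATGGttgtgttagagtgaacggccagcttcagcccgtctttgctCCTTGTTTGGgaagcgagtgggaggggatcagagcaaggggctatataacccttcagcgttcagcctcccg
Lmod1, 1 mismatch (chr1:137221184-137221383, plus strand): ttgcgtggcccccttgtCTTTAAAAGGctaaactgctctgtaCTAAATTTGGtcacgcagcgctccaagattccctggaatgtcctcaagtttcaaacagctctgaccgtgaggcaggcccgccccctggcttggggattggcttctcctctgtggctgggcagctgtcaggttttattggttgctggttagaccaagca
The letters TATAAA were in the 60 bp upstream of the start site of none of the 10 genes and of 3.42% of all promoters.

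Inside the 17 peaks there were 7 exact boxes, in 6 peaks of 5 genes, or 0.324 per kb of peak against 0.0457 per kb over all peaks. Acta2 had a box in its intron 1 peak at 2138 bp from the start site, near the edge of the peak, 449 bp from its midpoint. In Cnn1 the box was at 850 bp, inside intron 1, and 470 bp from the midpoint. The peak of Tagln held both boxes named above, at 252 and 375 bp from its midpoint. In Cald1 a box lay at −246 bp from the 5′-most start site, inside the 5′ peak, and the gene had another in a downstream peak. The box of Smtn was in the intronic peak, 98 bp from the midpoint. The 80 bp around 4 boxes that lie outside the Tagln promoter are shown along the gene, with the box in capitals, to set their surroundings side by side.
Acta2, intron 1 (chr19:34327648-34327727, minus strand): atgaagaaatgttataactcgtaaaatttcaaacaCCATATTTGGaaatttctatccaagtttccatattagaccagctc
Cnn1, intron 1 (chr9:21904535-21904614, plus strand): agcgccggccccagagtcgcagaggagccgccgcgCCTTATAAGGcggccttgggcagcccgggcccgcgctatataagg
Smtn, intronic peak (chr11:3435799-3435878, minus strand): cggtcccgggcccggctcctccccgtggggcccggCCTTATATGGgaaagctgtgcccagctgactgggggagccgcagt
Cald1, 5′ start region (chr6:34548214-34548293, plus strand): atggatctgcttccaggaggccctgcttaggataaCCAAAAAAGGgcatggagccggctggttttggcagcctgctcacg
The boxes of Cnn1 and Cnn2 had the same 10 letters, although one lay in a peak and the other did not. Each match describes the letters of the sequence and not a bound site.

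Because wide peaks have more room for a match, windows of equal length around the midpoint were compared. In the central 500 bp only the intronic peak of Smtn and a downstream peak of Cald1 held a box, 2 of 17, against 2.00% of all peaks. Both were among the 5 peaks at 1 to 10 kb, a class with a share of 2.27%. None of the 9 peaks within 1 kb (1.20% of that class) and none of the 3 beyond 10 kb (2.77%) held one. In the central 1000 bp it was 6 of 17, against 4.30% of all peaks. The boxes of Tagln, Cnn1, Acta2 and the 5′ peak of Cald1 came in with the longer window.

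Short motifs of other muscle and heart factors were counted in the central 500 bp on both strands. The shares beside them are over all peaks, not split by distance class or base composition. CATTCC, the core of the site of TEAD factors, was in 9 of the 17 peaks against 24.9% of all peaks. CAAGTG, bound by NK2 homeodomain factors such as Nkx2-5, was in 7 against 20.4%. CAGCTG, an E-box, was in 7 against 31.1%, and AGATAA, bound by factors such as Gata4, in 4 against 14.9%. The peaks over the start sites of Acta2, Myh11, Lmod1 and Des held CATTCC and CAGCTG, and that of Lmod1 also held CAAGTG. Those of Tagln, Cnn1 and the internal start sites of Cald1 held CAAGTG alone of these 4. The 5′ peak of Cald1 held CATTCC alone, and the start site peak of Smtn held none of the 4.

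Other genes of smooth muscle contraction and adhesion had peaks throughout. All 22 examined had at least 1 and 12 had 2 or more, where the shares over protein coding genes were 62.5% and 24.4%. Of the 22 promoters 18 overlapped a peak, against 53.5% of all promoters. Only 10 of the 22 were CpG-poor, and 89.4% of all CpG-rich promoters overlapped a peak. Csrp1 (a LIM protein of the cytoskeleton) and Lpp (a focal adhesion protein) had the most, with 6 each, mainly over 10 kb from the start site. The widest of their peaks within 1 kb was that of Tpm4, a tropomyosin, at 2500 bp. Mylk, which encodes the kinase that starts smooth muscle contraction, had a single peak at −39625 bp and none at its promoter. The 8 regulators examined all had a peak, and 7 of 8 promoters overlapped one. Only 3 of these 8 promoters were CpG-poor. Srf had 1 peak of 2471 bp at 342 bp, Myocd 1 peak of 1138 bp at −80 bp, and Klf4, a repressor of the contractile state, had 8.

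Of 14 paralogs of these genes, from other muscles or from non-muscle cells, 12 had a peak, against 62.5% of protein coding genes. Of their 14 promoters 10 were overlapped, against 53.5% of all promoters. Lmod2, the cardiac leiomodin, and Actg1, a cytoplasmic actin, were at 0 by symbol, although a peak assigned to another gene overlapped the Actg1 promoter. Cardiac α-actin, Actc1, had 1 peak of 1112 bp at −182 bp. Cnn3, the remaining calponin, had 2 peaks, with one of 2313 bp at its start site, unlike Cnn2. Myh9, which encodes a non-muscle myosin heavy chain, had the most with 6, mainly over 10 kb from the start site. The widest peak within 1 kb was that of Tagln2, at 3084 bp.

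Contractile genes of the striated muscles were set beside the smooth muscle genes as the closest counterparts. Of 10 cardiac genes 6 had a peak and 4 had 2 or more, where the shares over protein coding genes were 62.5% and 24.4%. Of their promoters 2 overlapped a peak, those of Myl7 and Actn2. Tnnt2 had a peak of 1370 bp within 1 kb of its assigned start site, but that site differs from the coding start site of GENCODE, so that by the deposited distance 3 cardiac genes had a peak within 1 kb. Of 10 skeletal muscle genes 2 had a peak, Tnnt3 at 258 bp and Mybpc2 at 2710 bp, and 2 promoters overlapped one, those of Tnnt3 and Actn3, the latter by a peak assigned to another gene. All promoters of both lists were CpG-poor. Thus 2 of 10 and 2 of 10 CpG-poor promoters had a peak, near the share of 24.7% over all CpG-poor promoters. Among the smooth muscle genes 6 of 8 did. In the remaining lists the count was 6 of 10 for other smooth muscle genes, 4 of 8 for paralogs, 2 of 3 for regulators, 3 of 5 for fibroblast markers, 2 of 4 for progenitor markers and 0 of 4 for endothelial markers. The difference between the lists was not tested, as there is no replicate value and genes are not replicates of a condition.

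**Figure D5:**
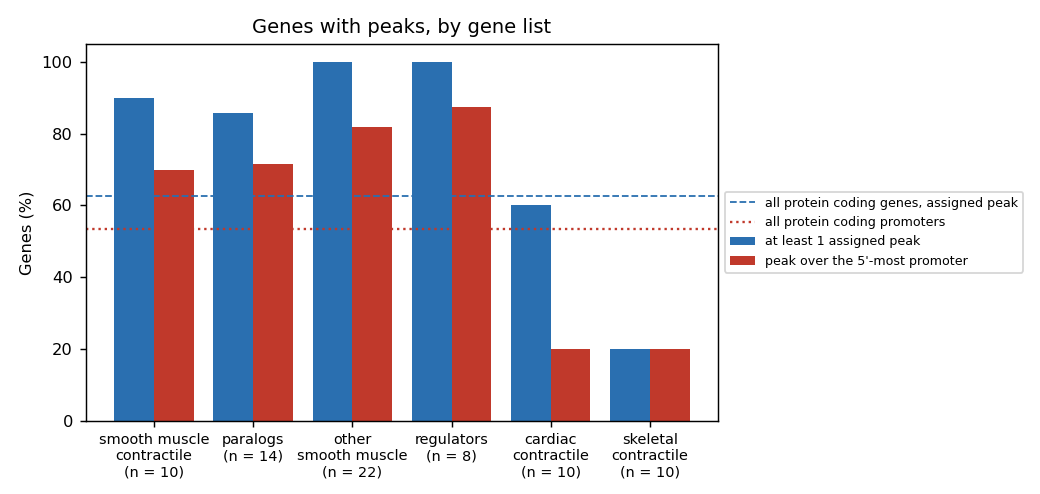
Percentage of genes with at least 1 assigned peak (blue) and with a peak over the 5′-most promoter (red) in 6 gene lists, with the shares over all protein coding genes (62.5%, dashed) and promoters (53.5%, dotted) as lines. Both bars of the smooth muscle contractile genes are above the lines, as are those of paralogs, other smooth muscle genes and regulators. The red bars of the cardiac and skeletal genes are below, but their promoters are all CpG-poor, a class with a share of 24.7%.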

How the data were processed

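Per the study's methods, the authors mapped ATAC-Seq reads to mm9 with bowtie2, kept properly paired primary reads (samtools), removed duplicates with Picard 1.136 and called peaks in each replicate with MACS14 at a fixed shift. Blacklisted regions were dropped, and intervals overlapping by at least 1 bp between the replicates were retained using bedtools 2.15 (intersect -wa). A listed width thus need not be the same in both replicates. Whether cut positions of Tn5 were shifted is not stated. The deposited list gives start, end, signed distance in bp to a start site, accession and symbol, with no score and no value per replicate, so interval widths also depend on caller and depth.

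The 26429 lines were reduced to 26232 distinct intervals, given 1-based. Sequence came from NCBIM37 (mm9) and gene models from GENCODE vM1. Protein coding genes were those of a RefSeq table (GRCm38.p6, names only), to which 99.9% of peaks matched by accession or symbol. Motif and overlap functions were tested on simulated data. Python 3.11.15, NumPy 2.4.6 and SciPy 1.17.1 were used. All 10 genes were named. Genes, lists and motifs were chosen with earlier results of these data known. Alternatives covered peak width, assignment, start site, window and mismatches. No statistical test was run. The sequence and position of 1 box are not reported here.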

Additional observations from a re-analysis of the deposited data

How the results depend on the processing

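Across 8 results, 31 alternative values were obtained, of which 22 stayed within 1.5 times the reported value and 9 moved. Keeping only peaks wider than the median of the list (1081 bp) left 7 peaks and 5 genes with a peak (44.2% of protein coding genes). The median was then 0.5 peaks per gene (0 over protein coding genes). There were 3 promoters with a peak (41.1%) and 1 peak beyond 10 kb (21.8%). Lower counts follow from the construction of the filter. The promoter count, 7 of 10 against 53.5% as reported, nonetheless went from above the share over all promoters to below it. Counting every peak in or within 10 kb of the gene bodies gave 26 peaks, since peaks of neighbours are included. Allowing 1 mismatch in the CArG box gave 6 promoters (20.3% of all) and 5 peaks (24.1%), and a window of 1000 bp gave 6 peaks (4.30%). No replicate could be left out, because the list has no value per replicate. No paired analysis was possible because the samples form 1 group without a value for each. Depth is unknown, and it limits which regions could enter the list.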
